A study of Mus musculus with 12 samples.

Results

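The genes described here are the PGC-1 coactivators and the factors of mitochondrial biogenesis that act with or below them, in ventricles and white adipose tissue (WAT) of mice with enhanced cardiac MED13. The group was defined by gene symbol and not by any measured value. It holds Ppargc1a, Ppargc1b and Pprc1 (the coactivators PGC-1α, PGC-1β and PRC) and Esrra, Nrf1 and Gabpa (DNA-binding factors). It also holds Tfam, Tfb2m and Polrmt (the mitochondrial transcription machinery) and Tfb1m (which methylates mitochondrial ribosomal RNA). All 10 were found among the 23011 entries with a gene symbol in the expression tables of both tissues. Their loci in the tables (mm9) are chr5:51845487-51958859 for Ppargc1a, chr19:46131028-46147399 for Pprc1, chr6:29997987-30103458 for Nrf1, chr10:70688224-70701029 for Tfam, chr1:181458186-181476398 for Tfb2m and chr10:79198869-79209326 for Polrmt. Ppargc1b is on chromosome 18, and Esrra, Gabpa and Tfb1m share their loci with other genes, as given with their values.

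PGC-1 coactivators do not bind DNA themselves. They dock on transcription factors such as ERRα, NRF1 and GABP and recruit chromatin-modifying enzymes and Mediator, and the genes switched on in this way include those for respiratory chain subunits and for the proteins that copy and transcribe mitochondrial DNA. TFAM packages mitochondrial DNA and helps to start its transcription, TFB2M melts the promoter, and the RNA polymerase POLRMT makes the transcript, while TFB1M methylates the RNA of the small mitochondrial ribosomal subunit. The heart, which relies on oxidative phosphorylation, is known for high PGC-1α and ERRα, whereas white fat holds little PGC-1α unless it is stimulated.

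RNA was sequenced from heart ventricles and epididymal fat of wild type (WT) mice and of mice carrying a cardiac MED13 transgene (MED13cTg), all male C57BL/6 littermates aged 6 weeks fed freely on chow, with tissues taken late in the afternoon. Each genotype and tissue was represented by 3 mice, which gave 12 libraries. The promoter that drives the transgene and the number of founder lines are not given in the sources used here. Values are FPKM, fragments divided by the length of the transcript and by the number of mapped fragments of the library, and genotypes were compared within each tissue with limma on log2(FPKM + 1), so that a log2 fold change understates the change of a gene near 1 FPKM.

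The transgene was visible in the heart. Med13, the subunit that links the CDK8 module to the Mediator complex, was at 13.1, 10.6 and 11.5 FPKM in WT ventricles and at 263, 181 and 204 FPKM in MED13cTg ventricles (log2 fold change 4.08, SE 0.17, limma adjusted p = 0.000273). In WAT it was at 10.9, 9.43 and 9.99 FPKM in WT mice against 7.84, 11.03 and 10.7 FPKM in MED13cTg mice, with overlapping groups.

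Some libraries stood apart. In WAT, the rank correlation across genes with the other libraries was 0.351 to 0.494 for MED13cTg replicate 1 and 0.351 to 0.854 for MED13cTg replicate 2, against 0.944 to 0.969 between any pair of ventricle libraries. Markers of the epididymis, the sperm duct beside this fat pad (20 genes such as Lcn5 and Crisp1), summed to 99471 to 126348 FPKM in the 3 WT libraries and to 16004, 303 and 101493 FPKM in the MED13cTg libraries. Markers of white adipocytes (11 genes such as Adipoq and Plin1) summed to 15596 to 36661 FPKM in WT mice against to 1579, 96177 and 19965 FPKM in MED13cTg, and 8 markers of testis germ cells (Prm1 and others) summed to 225 to 323 FPKM in WT mice against to 14485, 6.71 and 359 FPKM in MED13cTg. The epididymis sum was thus above the adipocyte sum in 5 of 6 libraries labelled as fat, and the make-up of the WAT libraries differed most in MED13cTg replicates 1 and 2. The ventricle libraries fell into 2 clusters that crossed the genotypes, with WT replicate 1 beside MED13cTg replicates 1 and 2, and WT replicates 2 and 3 beside MED13cTg replicate 3. Markers of cardiomyocytes summed to 89187 to 131297 FPKM in every ventricle library and to at most 65.8 FPKM in WAT, and atrial markers to 452 to 747 FPKM in WT mice against 998 to 2450 FPKM in MED13cTg ventricles. The atrial list holds Nppa, which the study reports as raised in MED13cTg ventricles. By the median log2 difference of the tested atrial markers from the WT mean, the genotypes overlapped. It was 0.72, -0.19 and -0.12 in WT replicates 1 to 3 against 0.37, 2.05 and 0.090 in MED13cTg. In whole tissue, fewer cells of a type and less RNA per cell cannot be told apart.

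Promoters of these genes are shown because the group holds the factors GABPA, NRF1 and ERRα, whose binding cores can be read in the letters of the other members. RefSeq promoters (GRCm38.p6, 250 bases before to 50 bases after a gene's start) were listed for 9 members, and the cores of the sites known for 3 of the factors were searched on both strands. The ETS core bound by GABPA (CCGGAAG, read CTTCCGG on the other strand) was in the promoters of Gabpa itself, Tfam and Polrmt, 93, 47 and 43 bases before the start, and in 8.86% of all 32851 promoters. The NRF1 core TGCGCA, which reads the same on both strands, was in those of Esrra, Tfb2m and Polrmt and in 7.76% of all promoters. The ERR element AAGGTCA, searched on both strands as the others, was in none of the 10 promoters of the members, where Nrf1 has more than 1 start, and in 4.72% of all promoters. The letters of these motifs do not overlap each other in the members, and a match is only a match of letters. The 120 bases before the start are shown for the 4 members with a match there and for Ppargc1a, on the gene's strand, with the matches in capitals (Esrra chr19:6921809-6921928, Gabpa chr16:84835004-84835123, Tfam chr10:71238045-71238164, Polrmt chr10:79746582-79746701, Ppargc1a chr5:51567726-51567845).
Esrra: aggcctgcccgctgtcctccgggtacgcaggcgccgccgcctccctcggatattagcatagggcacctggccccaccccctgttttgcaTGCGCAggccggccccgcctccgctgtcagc
Gabpa: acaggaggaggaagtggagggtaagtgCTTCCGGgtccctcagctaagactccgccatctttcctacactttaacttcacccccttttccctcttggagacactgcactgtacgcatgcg
Tfam: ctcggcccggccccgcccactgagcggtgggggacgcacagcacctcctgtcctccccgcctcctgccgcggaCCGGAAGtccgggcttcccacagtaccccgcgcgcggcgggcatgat
Polrmt: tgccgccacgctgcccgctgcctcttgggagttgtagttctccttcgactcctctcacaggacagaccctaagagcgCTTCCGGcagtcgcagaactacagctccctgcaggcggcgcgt
Ppargc1a: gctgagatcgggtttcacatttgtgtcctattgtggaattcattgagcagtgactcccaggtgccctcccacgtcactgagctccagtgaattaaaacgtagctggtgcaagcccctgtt
Bases G and C made up 71.7% of the Esrra window, 75.8% of that of Tfam, 63.3% of that of Polrmt and 54.2% of that of Gabpa, and 50.8% of that of Ppargc1a, which held no match.

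In WT ventricles the group was led by Esrra and Ppargc1a. Esrra was at 93.2 ± 2.51 FPKM (SD, n = 3), Ppargc1a at 54.4 ± 9.40 FPKM and Tfb2m at 42.7 ± 2.13 FPKM, and the values of the latter pair overlapped. Gabpa at 19.7 FPKM and Tfam at 15.5 FPKM overlapped as well. Polrmt followed at 13.8 FPKM, then Tfb1m at 9.05 FPKM, Ppargc1b at 7.99 FPKM and Nrf1 at 6.43 FPKM. Ppargc1b overlapped both of its neighbours, and Pprc1 was the lowest at 4.38 FPKM, without overlap. The coactivators therefore spanned nearly the whole range of the group in the heart.

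In WT WAT the order was different. Tfb2m at 18.8 ± 1.77 FPKM and Esrra at 18.1 ± 0.975 FPKM overlapped at the top, followed by Tfam at 10.1 FPKM, Tfb1m at 8.17 FPKM and Gabpa at 7.81 FPKM, the last pair overlapping. Polrmt at 6.61 FPKM, Nrf1 at 5.82 FPKM and Pprc1 at 3.17 FPKM came next. Ppargc1a at 1.30 ± 0.156 FPKM and Ppargc1b at 0.380 ± 0.0126 FPKM were at the bottom, with no overlap between neighbours from Gabpa down. Set side by side, the WT mean of Ppargc1a was 41.9 times as high in the ventricle table as in the WAT table and that of Ppargc1b 21.0 times, against 5.15 for Esrra, 2.52 for Gabpa, 2.26 for Tfb2m, 2.09 for Polrmt, 1.54 for Tfam, 1.38 for Pprc1 and 1.11 for both Tfb1m and Nrf1. WT values were higher in ventricles without overlap for 9 of 10 members and overlapped for Tfb1m. The same share over all genes was not counted, so this count describes the members only. The tables were made separately, so these ratios are descriptions, and the WT WAT values come from libraries with the epididymis markers given above.

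**Figure D1:**
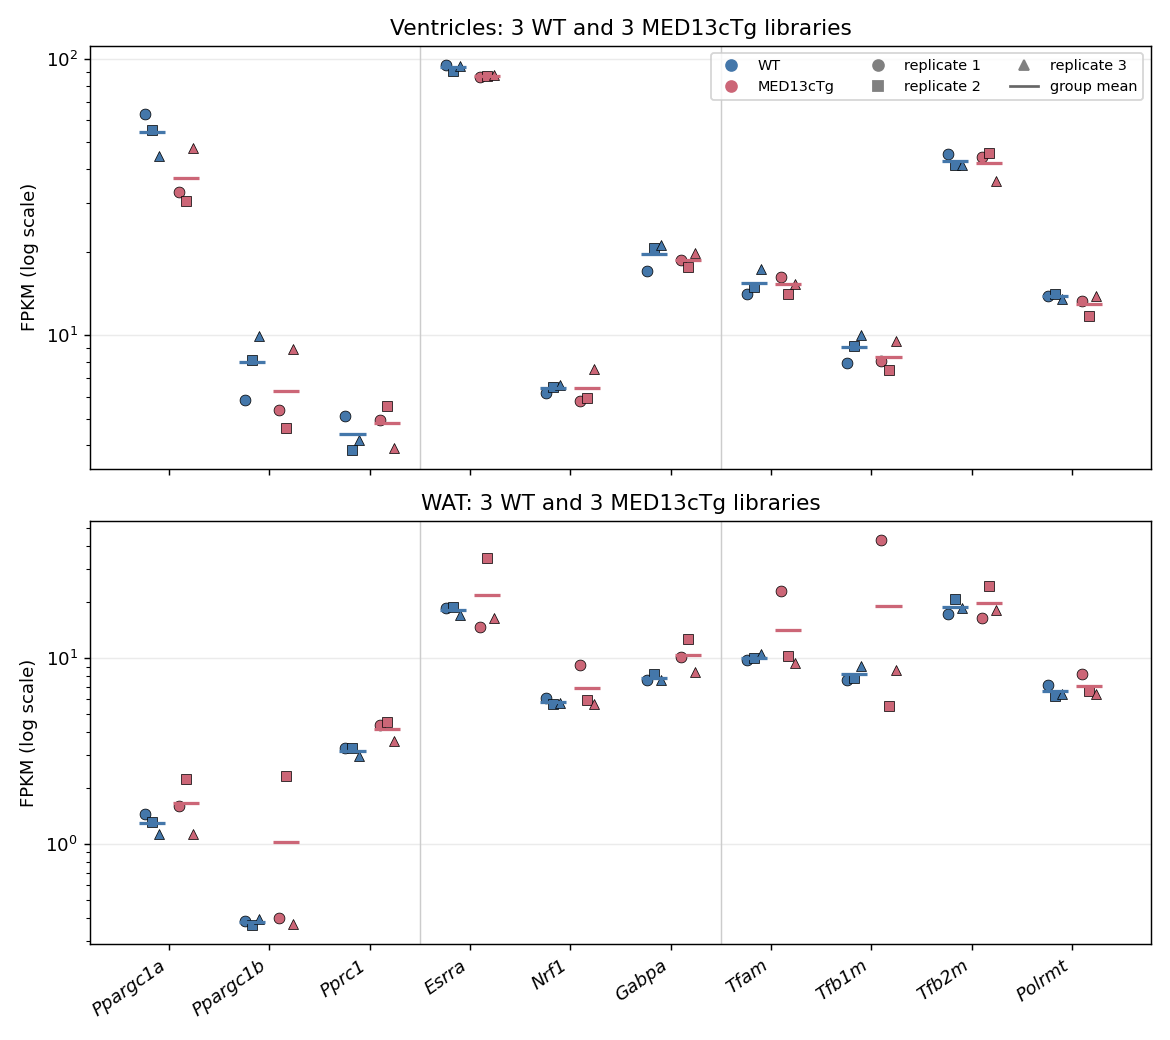
FPKM on a log scale for the 10 members in 3 WT (blue) and 3 MED13cTg (red) libraries of ventricles (top) and WAT (bottom), with circles, squares and triangles for replicates 1, 2 and 3 and a bar for each group's mean. In ventricles Ppargc1a ran from 44.6 to 63.3 FPKM in WT mice against from 30.6 to 47.4 FPKM in MED13cTg mice, and in WAT the MED13cTg circles and squares lay away from the WT points for several genes.

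The comparison of genotypes in ventricles asks what raised cardiac MED13 does to these genes in the tissue that carries the transgene. No member passed the test, with adjusted p of 0.966 to 0.996 over all 12576 genes tested, and the lowest fitted value in the group was that of Ppargc1a. Across all genes, 0.0557% were called at an adjusted p under 0.05, 3 higher (0.0239%) and 4 lower (0.0318%), and none of the 10 members in either direction. Of the 10 members, 9 had a fitted value below 0 and Pprc1 one above 0, the median was -0.077, and the median of all genes tested was -0.014, with 53.3% of all genes below 0.

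Ppargc1a encodes PGC-1α, the coactivator that exercise, cold and fasting induce. It was listed at 63.3, 55.5 and 44.6 FPKM in WT mice against 32.95, 30.6 and 47.4 FPKM in MED13cTg ventricles. The means were 54.4 ± 9.40 and 37.0 ± 9.13 FPKM (SD, n = 3 each), a ratio of 0.679. The log2 fold change was -0.56 (SE 0.20, 95% interval -1.04 to -0.070, limma adjusted p = 0.966). MED13cTg replicates 1 and 2 lay below all WT values, and replicate 3 lay above WT replicate 3, so the groups overlapped. It was the only member with an unadjusted p under 0.05, 1 of 10 where 4.72% of all genes tested had one, 3.04% in the lower and 1.69% in the higher direction. Within the library clusters, the difference on the log2 scale was -0.97 for MED13cTg replicates 1 and 2 against WT replicate 1, and -0.067 for MED13cTg replicate 3 against WT replicates 2 and 3. With each library left out in turn the log2 fold change ran from -0.75 to -0.44, and over all alternatives its adjusted p ran from 0.102, under array weights, to 1.00.

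Ppargc1b encodes PGC-1β, the closest relative of PGC-1α. In ventricles it was at 5.85, 8.17 and 9.95 FPKM in WT mice against 5.37, 4.62 and 8.90 FPKM in MED13cTg mice (log2 fold change -0.32, SE 0.26). Leaving out a library moved that value to -0.15 (without MED13cTg replicate 2), -0.16 (without WT replicate 3), -0.50 (without WT replicate 1) or -0.56 (without MED13cTg replicate 3). The 3 lowest values came from the libraries of the cluster that holds WT replicate 1 with MED13cTg replicates 1 and 2, and the genotypes overlapped. Within the clusters the differences were -0.19 and -0.017, and the fitted value was -0.11 with the cluster as a covariate. Pprc1, the family member that responds to serum and growth signals, was at 5.09, 3.86 and 4.19 FPKM in WT mice against 4.93, 5.56 and 3.92 FPKM in MED13cTg ventricles, again with overlap (log2 fold change 0.11, SE 0.15). The 3 coactivators thus had values of -0.56, -0.32 and 0.11, and the 95% intervals of Ppargc1b (-0.93 to 0.29) and Pprc1 (-0.25 to 0.46) both included 0.

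Esrra encodes ERRα, the orphan nuclear receptor through which PGC-1α reaches many genes of oxidative metabolism. Its level was 94.97, 90.3 and 94.2 FPKM in WT mice against 86.4, 86.7 and 87.7 FPKM in MED13cTg ventricles. All MED13cTg values lay below all WT values, by a small margin (ratio of means 0.933, log2 fold change -0.099, SE 0.098). Esrra was the only member without overlap, 1 of 10 below and 0 above, where 5.85% of all genes tested lay below and 3.46% above, 9.31% in all. Under quantile normalization the genotypes overlapped for Esrra too. In the table its locus (mm9, chr19:6981265-6996298) also holds Trmt112 and Prdx5, with Prdx5 at 715 to 1075 FPKM in ventricles, and with counting that does not use strand, reads where such genes overlap cannot be told apart.

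Nrf1, the factor that binds the promoters of cytochrome c and many respiratory subunits, was at 6.20, 6.52 and 6.59 FPKM in WT mice against 5.79, 5.95 and 7.57 FPKM in MED13cTg ventricles. Both the lowest and the highest value were MED13cTg values, and the means were equal to 3 digits at 6.43 FPKM. Gabpa, the DNA-binding subunit of GABP (also called NRF2), was at 17.1, 20.6 and 21.2 FPKM in WT mice against 18.7, 17.7 and 19.9 FPKM in MED13cTg mice, which lay wholly within the WT range (log2 fold change -0.060, SE 0.12). Its locus (mm9, chr16:84828115-84864023) is shared with Atp5j, a subunit of ATP synthase at 2314 to 3859 FPKM in ventricles.

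The machinery of mitochondrial transcription and Tfb1m lay close together in the genotypes. Tfam was at 14.2, 14.9 and 17.3 FPKM in WT mice against 16.3, 14.1 and 15.4 FPKM in MED13cTg ventricles (log2 fold change -0.014, SE 0.11, 95% interval -0.29 to 0.26). On the linear scale of FPKM + 1, that interval runs from 0.820 to 1.19 times the WT level. Polrmt was at 13.8, 14.1 and 13.5 FPKM in WT mice against 13.3, 11.7 and 13.8 FPKM in MED13cTg mice, so that replicate 2 was the lowest and replicate 3 lay inside the WT range (log2 fold change -0.093, SE 0.10). Tfb2m was at 45.1, 41.4 and 41.5 FPKM in WT mice against 44.1, 45.6 and 36.05 FPKM in MED13cTg mice (log2 fold change -0.031, SE 0.12). Tfb1m was at 7.91, 9.17 and 10.1 FPKM in WT mice against 8.10, 7.51 and 9.499 FPKM in MED13cTg mice (log2 fold change -0.10, SE 0.13). All 4 overlapped between genotypes, and their 95% intervals lay between -0.41 and 0.26.

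Counted by library, the 10 members did not move as a block in the 3 transgenic hearts. Against the range of the WT libraries, MED13cTg replicate 1 had 0 members above, 5 within and 5 below, replicate 2 had 2 above, 1 within and 7 below, and replicate 3 had 1 above, 7 within and 2 below. Pprc1 and Tfb2m were the members above the WT range in replicate 2, and Nrf1 was the one above it in replicate 3. The same share over all genes was not counted by library, so these counts describe the members only.

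**Figure D2:**
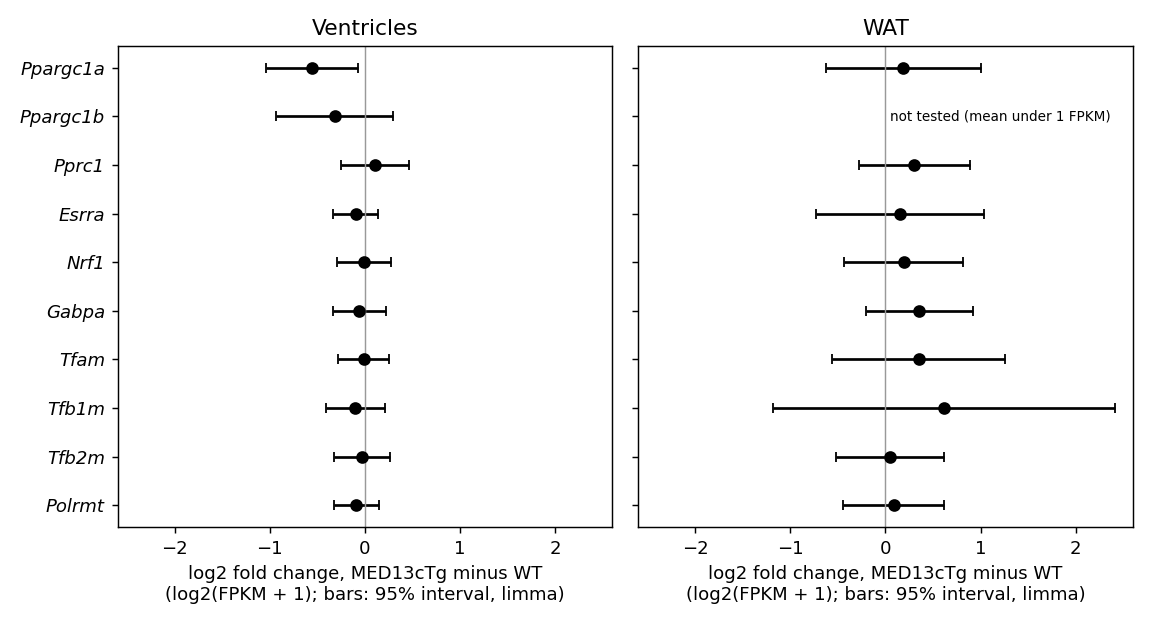
Log2 fold change (MED13cTg minus WT, on log2(FPKM + 1)) of each member in ventricles (left) and WAT (right), with bars for the 95% interval of the limma fit to 3 against 3 libraries. The interval of Ppargc1a in ventricles (-1.04 to -0.070) is the only one that leaves out 0 before adjustment, and Ppargc1b was not tested in WAT because its mean was under 1 FPKM.

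In WAT, the comparison asks whether the same genes differ in a tissue whose Med13 level overlapped between genotypes. Again no member passed the test, with adjusted p of 0.738 to 0.944 over 14942 genes, of which 0.0134% were called, 0 higher (0.0%) and 2 lower. At an unadjusted p under 0.05, limma gave 189 of all genes (1.26%), 21 higher (0.141%) and 168 lower (1.12%), and 0 of the 9 members. In the paired fit, which takes the replicate number as a block, limma called 0 genes. Ppargc1b, with a mean under 1 FPKM, was not tested. The 9 tested members all had a fitted value above 0, with a median of 0.19 against 0.012 for all genes, of which 50.7% were above 0. With MED13cTg replicates 1 and 2 both left out, so that replicate 3 alone stood against the WT mice, the median of the members was -0.035, and of the tested members only Pprc1 (0.14), Gabpa (0.096) and Tfb1m (0.064) kept a value above 0.

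Ppargc1a in WAT was at 1.44, 1.32 and 1.13 FPKM in WT mice against 1.60, 2.24 and 1.13 FPKM in MED13cTg mice (log2 fold change 0.19, SE 0.33). The higher values were those of MED13cTg replicates 1 and 2, and replicate 3 equalled the lowest WT value to 3 digits. Ppargc1b was listed at 0.383, 0.366 and 0.391 FPKM in WT mice against 0.396, 2.32 and 0.369 FPKM in MED13cTg mice. Its excess was that of MED13cTg replicate 2, the library with the highest sum of adipocyte markers and the lowest of epididymis markers, and the part of these markers in its value was not tested. Without a filter on low values its log2 fold change was 0.42 (SE 0.37, limma adjusted p = 0.740). Pprc1 was at 3.27, 3.27 and 2.97 FPKM in WT mice against 4.38, 4.54 and 3.58 FPKM in MED13cTg WAT, so that every MED13cTg value lay above every WT value (log2 fold change 0.30, SE 0.24, limma adjusted p = 0.738).

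Gabpa was the other member without overlap. It was at 7.64, 8.17 and 7.63 FPKM in WT mice against 10.2, 12.7 and 8.41 FPKM in MED13cTg WAT (log2 fold change 0.36, SE 0.23, 95% interval -0.20 to 0.92). Together with Pprc1 it made 2 of 9 tested members above all WT values and 0 below, where 4.89% of all genes tested lay above and 7.8% below, 12.7% in all. Under quantile normalization neither gene kept its groups apart. Atp5j, in the same locus as Gabpa, was at 459 to 630 FPKM in WT mice against 452 to 550 FPKM in MED13cTg WAT.

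For Esrra and Nrf1 the fitted value rested on a different library each. Esrra was at 18.6, 18.7 and 16.98 FPKM in WT mice against 14.6, 34.5 and 16.3 FPKM in MED13cTg WAT (log2 fold change 0.16, SE 0.36), high in replicate 2 and below the WT range in the other two. Without replicate 2 the log2 fold change of Esrra was -0.22. Nrf1 was at 6.10, 5.65 and 5.69 FPKM in WT mice against 9.13, 5.97 and 5.65 FPKM in MED13cTg WAT, with replicate 1 the highest, and its log2 fold change was 0.19 (SE 0.25) with all libraries and -0.0007 without replicate 1.

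Among the mitochondrial factors, Tfam and Tfb1m had their highest values in MED13cTg replicate 1. Tfam was at 9.72, 9.95 and 10.5 FPKM in WT mice against 22.8, 10.2 and 9.40 FPKM in MED13cTg WAT (log2 fold change 0.35, SE 0.37). Tfb1m was at 7.60, 7.84 and 9.08 FPKM in WT mice against 43.04, 5.52 and 8.57 FPKM in MED13cTg WAT (log2 fold change 0.61, SE 0.73), the widest spread in the group. Replicate 1 is the library with 14485 FPKM of germ cell markers, and the part of these markers in the values of Tfam and Tfb1m was not tested. Without replicate 1 the log2 fold changes were -0.033 for Tfam and -0.21 for Tfb1m. Tiam2 and Cldn20, which share the locus of Tfb1m in the table (mm9, chr17:3326572-3557713), stayed under 1.3 FPKM in every WAT library, with Cldn20 the higher of the pair in replicate 1 at 1.26 FPKM.

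Tfb2m and Polrmt differed least. Tfb2m was at 17.2, 20.7 and 18.6 FPKM in WT mice against 16.4, 24.5 and 18.2 FPKM in MED13cTg WAT (log2 fold change 0.047, SE 0.23), with MED13cTg values on both sides of the WT range. Polrmt was at 7.18, 6.25 and 6.39 FPKM in WT mice against 8.22, 6.65 and 6.41 FPKM in MED13cTg WAT (log2 fold change 0.085, SE 0.21), above the WT range in replicate 1 alone. By library, MED13cTg replicate 1 had 8 members above the WT range and 2 below, replicate 2 had 6 above, 3 within and 1 below, and replicate 3, the one most like the WT libraries, had 2 above, 5 within and 3 below. Replicates 1 and 2 are the libraries that stood apart across all genes. The share of all genes outside the WT range was not counted by library, so these counts do not set the members apart from other genes.

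**Figure D3:**
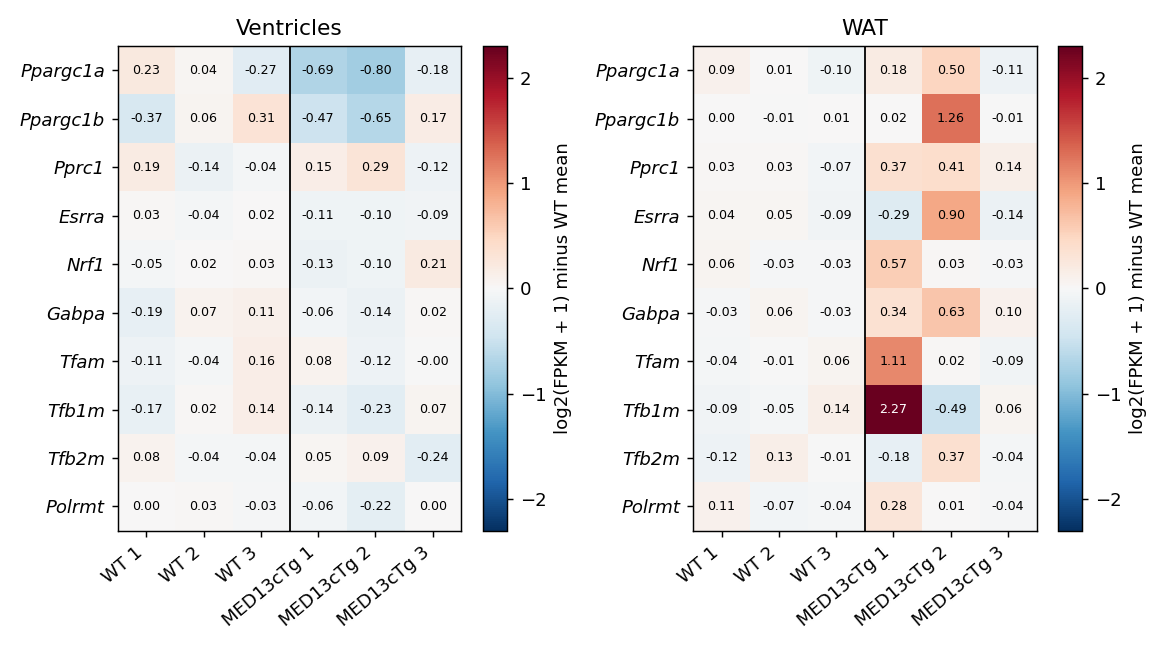
Difference of each library from the WT mean on log2(FPKM + 1) for the 10 members (rows) in ventricles (left) and WAT (right), coloured from blue (lower) to red (higher) and printed in each cell. The largest in WAT are Tfb1m at 2.27 and Tfam at 1.11 in MED13cTg replicate 1 and Ppargc1b at 1.26 in replicate 2, and the lowest in ventricles are Ppargc1a at -0.69 and -0.80 in MED13cTg replicates 1 and 2.

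The proteins that switch PGC-1α on and off were examined as a list of 30 regulators and cofactors. In ventricles 29 were tested and none was called. Of the 29, 10 had a value above 0 and 19 below, and the median was -0.076. At an unadjusted p under 0.05, 0 were higher and 2 lower, where 1.69% of all genes tested were higher and 3.04% lower. The 2 were also the only ones without overlap, where 5.85% of all genes tested lay below WT. Rnf34, a ubiquitin ligase for PGC-1α, was at 20.1, 24.8 and 27.5 FPKM in WT mice against 15.97, 15.8 and 17.3 FPKM in MED13cTg ventricles (log2 fold change -0.53, SE 0.13, limma adjusted p = 0.944). Lpin1, a phosphatidate phosphatase that also acts as a nuclear partner of PGC-1α and PPARα, was at 38.7, 45.3 and 39.96 FPKM in WT mice against 28.00, 25.1 and 33.1 FPKM in MED13cTg ventricles (log2 fold change -0.52, SE 0.13, limma adjusted p = 0.944). The lowest adjusted p of these genes over the alternatives was 0.0723 for Rnf34 and 0.0790 for Lpin1.

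In WAT, 29 regulators were tested, 0 were called or passed an unadjusted p of 0.05, and 23 had a value above 0 and 6 below, with a median of 0.19 and 3 above and 1 below WT without overlap, 4 of 29 where 12.7% of all genes tested did not overlap. With MED13cTg replicates 1 and 2 left out that median was 0.033. Prmt1, an arginine methyltransferase that modifies PGC-1α, lay below WT at 43.2, 48.5 and 68.9 FPKM against 78.1, 74.9 and 81.5 FPKM (log2 fold change -0.56, SE 0.25). Ppp3ca, a catalytic subunit of calcineurin, lay above WT at 40.1, 27.5 and 22.7 FPKM against 20.98, 17.3 and 21.8 FPKM (log2 fold change 0.53, SE 0.27). Crebbp, the acetyltransferase CBP, was above WT as well, at 5.68, 7.96 and 6.17 FPKM against 5.64, 4.56 and 4.56 FPKM (log2 fold change 0.35, SE 0.24). Med1, the Mediator subunit that PGC-1α contacts and named here after its values were seen, was at 9.11, 8.72 and 8.88 FPKM in WT mice against 37.2, 13.6 and 8.90 FPKM in MED13cTg WAT, the same order of MED13cTg libraries as Tfam.

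Other DNA-binding partners (27 genes, 25 tested in ventricles) had 5 values above 0 and 20 below in ventricles, with 0 higher and 1 lower at an unadjusted p under 0.05, 1 above WT and 4 below without overlap, and a median of -0.10. Over all genes tested, 4.72% had such a p, 3.46% lay above and 5.85% below. The largest without overlap was Max, the partner of MYC, at 49.1, 53.2 and 45.97 FPKM in WT mice against 33.6, 34.1 and 44.02 FPKM in MED13cTg ventricles (log2 fold change -0.41, SE 0.14, limma adjusted p = 0.966). Foxo1, which with PGC-1α drives gluconeogenic genes in liver, had a log2 fold change of -0.18 (SE 0.095), and Yy1, a zinc finger factor that recruits PGC-1α to mitochondrial genes, one of -0.14 (SE 0.11). Esrrb and Esrrg, the relatives of ERRα, were named after their values were seen. Esrrg was at 6.68, 11.4 and 12.99 FPKM in WT mice against 7.60, 5.35 and 11.03 FPKM in MED13cTg ventricles, and Esrrb at 5.31, 9.98 and 10.4 FPKM in WT mice against 5.33, 5.03 and 9.47 FPKM in MED13cTg. As for Ppargc1b, the lowest values were those of WT replicate 1 and MED13cTg replicates 1 and 2. Ppara, the fatty acid receptor that PGC-1α coactivates and also named after its values were seen, had overlapping values of 13.6, 19.1 and 17.96 FPKM in WT mice against 11.1, 6.45 and 16.2 FPKM in MED13cTg ventricles (log2 fold change -0.62, SE 0.30).

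In WAT, 26 of these partners were tested, 12 above 0 and 14 below, with a median of -0.014 and 0 at an unadjusted p under 0.05, and 2 lay above WT (4.89% of all genes tested) and 2 below (7.8%) without overlap. The median difference from the WT mean was -0.69, 0.46 and 0.0015 in MED13cTg replicates 1, 2 and 3, and the median log2 fold change was 0.36 without replicate 1 and -0.32 without replicate 2. Ppard, the fatty acid receptor PPARδ, was at 16.04, 13.5 and 13.99 FPKM in WT mice against 3.11, 10.4 and 12.98 FPKM in MED13cTg WAT (log2 fold change -0.83, SE 0.49). Max was lower too (log2 fold change -0.44, SE 0.34), at 17.3, 37.3 and 36.5 FPKM in MED13cTg WAT against 38.4 to 41.3 FPKM in WT. Only its MED13cTg replicate 1 lay far from the WT values. Sp1, a general factor of housekeeping promoters, had a value of 0.44 (SE 0.23). Pparg, the master factor of adipocytes, named after its values were seen as well, was at 50.3, 103 and 83.3 FPKM in WT mice against 7.09, 444 and 77.9 FPKM in MED13cTg WAT, in the same order as the adipocyte marker sums within each genotype.

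A list of 33 genes for upkeep of mitochondrial DNA and handling of its RNA had values on both sides of 0, from -0.44 to 0.18 in ventricles and from -0.59 to 0.84 in WAT. In ventricles 31 were tested, 13 above 0 and 18 below, with a median of -0.031. At an unadjusted p under 0.05, 0 were higher and 2 lower (1.69% and 3.04% of all genes tested). Without overlap, 0 lay above and 4 below WT (3.46% and 5.85% of all genes tested). Slc25a33, a mitochondrial carrier of pyrimidine nucleotides, whose entry is joined with Tmem201, was at 97.1, 106 and 87.6 FPKM in WT mice against 73.5, 57.7 and 84.6 FPKM in MED13cTg ventricles (log2 fold change -0.44, SE 0.17). Hsd17b10, a subunit of mitochondrial RNase P, was at 208, 218 and 225 FPKM in WT mice against 161, 187 and 181 FPKM in MED13cTg ventricles (log2 fold change -0.30, SE 0.12), and the RNA helicase gene Supv3l1 had a value of -0.27 (SE 0.12). In WAT 32 were tested, 15 above 0 and 17 below, with a median of -0.022, 0 at an unadjusted p under 0.05, and 0 above and 5 below WT without overlap (4.89% and 7.8% of all genes tested). That median was 0.061 without MED13cTg replicate 1 and -0.089 without replicate 2. They included Dguok, which salvages purine nucleosides for mitochondrial DNA (log2 fold change -0.59, SE 0.37), Twnk, the replicative helicase, listed under its older symbol Peo1 (-0.46, SE 0.23), and the nuclease gene Exog (-0.44, SE 0.31). For Twnk, MED13cTg WAT held 8.39, 8.23 and 12.1 FPKM against 14.1, 13.2 and 12.9 FPKM in WT.

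Classical targets of PGC-1α, such as citric acid cycle, respiratory chain and uncoupling genes, were given by a list of 31. In ventricles 8 had a value above 0 and 23 below, the median was -0.13, and 0 passed an unadjusted p of 0.05 in either direction. Cs, citrate synthase, was at 605, 701 and 778 FPKM in WT mice against 490, 584 and 583 FPKM in MED13cTg ventricles, below WT without overlap (log2 fold change -0.33, SE 0.16, limma adjusted p = 0.966). Fabp3, the fatty acid binding protein of heart muscle, was the 1 target above WT without overlap (log2 fold change 0.26, SE 0.19), and 2 lay below. Over all genes tested, 3.46% lay above and 5.85% below, and 4.72% had an unadjusted p under 0.05. Under quantile normalization the median of the targets in ventricles was -0.034.

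In WAT the same 31 targets had 16 values above 0 and 15 below, with a median of 0.0041 and 0 higher and 1 lower at an unadjusted p under 0.05. That median joins libraries that lay apart, with a median difference from the WT mean of -0.80, 0.66 and -0.13 in MED13cTg replicates 1, 2 and 3, and it was 0.29 without replicate 1 and -0.41 without replicate 2. Without overlap, 1 target lay above WT and 3 below, where 4.89% of all genes tested lay above and 7.8% below. At an unadjusted p under 0.05, 1.12% of all genes tested were lower. The target lower at that p was Atp5g1, a subunit c gene of ATP synthase, at 304, 255 and 308 FPKM in WT mice against 89.97, 87.5 and 255 FPKM in MED13cTg WAT (log2 fold change -1.19, SE 0.47, limma adjusted p = 0.738). Ucp2, a carrier of the uncoupling protein family, was at 227, 187 and 214 FPKM in WT mice against 40.4, 103 and 167 FPKM in MED13cTg WAT (log2 fold change -1.23, SE 0.54). Fndc5, the precursor of irisin, lay above WT at 13.1, 9.44 and 1.57 FPKM against 1.42, 1.45 and 1.44 FPKM (log2 fold change 1.57, SE 0.67, limma adjusted p = 0.738). For these 3 genes MED13cTg replicate 3 lay close to the WT values and replicates 1 and 2 lay far from them.

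Genes of mitochondrial fusion, fission and mitophagy (15 genes, all tested) had 4 values above 0 and 11 below in ventricles, with a median of -0.070. Pink1, the kinase that marks damaged mitochondria, was the 1 gene below WT without overlap and at an unadjusted p under 0.05, at 334, 376 and 401 FPKM in WT mice against 272, 277 and 314 FPKM in MED13cTg ventricles (log2 fold change -0.36, SE 0.13, limma adjusted p = 0.966). Over all genes tested in ventricles, 5.85% lay below WT without overlap, and 3.04% were lower at an unadjusted p under 0.05. In WAT 8 of the 15 genes had a value above 0 and 7 below, with a median of 0.035. Without overlap, 1 lay above WT and 1 below (4.89% and 7.8% of all genes tested). Fis1, an adaptor of fission, was at 228, 229 and 265 FPKM in WT mice against 101, 158 and 193 FPKM in MED13cTg WAT (log2 fold change -0.72, SE 0.31), and Mief1, another adaptor, listed as Smcr7l, had a value of 0.45 (SE 0.29).

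**Figure D4:**
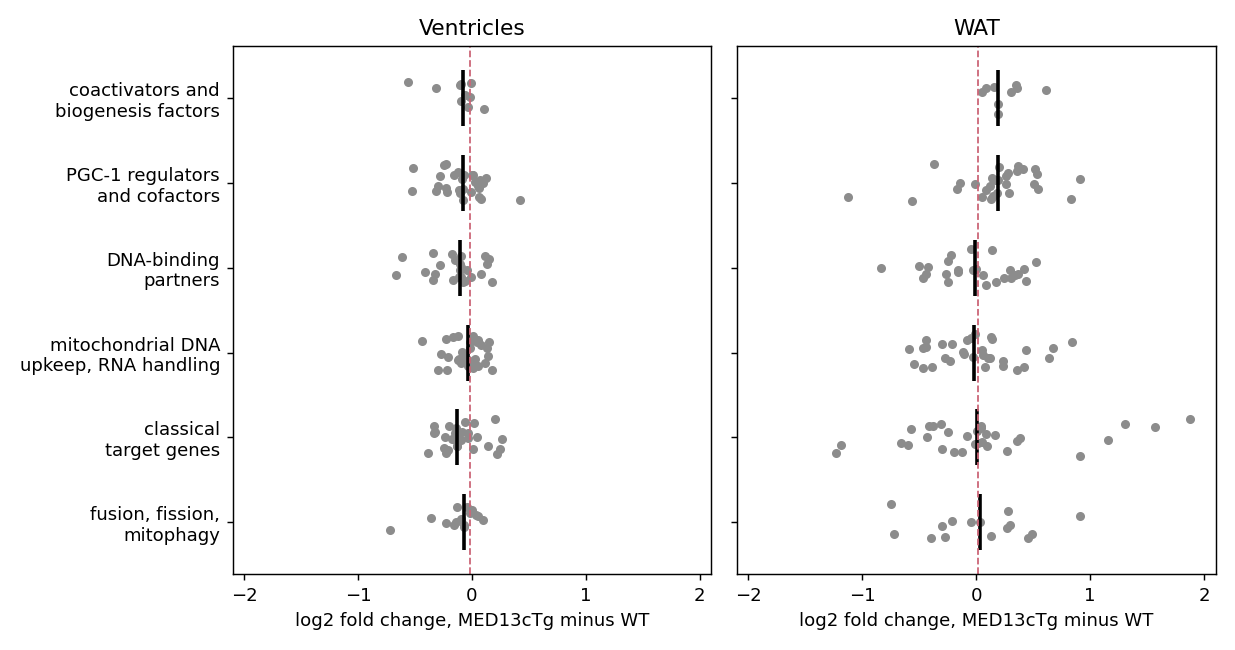
Log2 fold change (MED13cTg minus WT) of every tested gene of the 6 lists in ventricles (left) and WAT (right), with each gene as a point, a black bar for the list's median and a dashed line for the median of all genes tested. Values are tighter in ventricles, where the list medians lie between -0.13 and -0.031, than in WAT, where they lie between -0.022 and 0.19.

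Genes whose values over the 12 libraries most resembled each coactivator were sought among 11924 genes, by the mean absolute difference between log2(FPKM + 1) values after each gene was centred on its own mean. For Ppargc1a these were Grb14 (0.22), an adaptor of the insulin receptor, Nceh1 (0.23), a cholesterol ester hydrolase, and Cpeb3 (0.27), an RNA-binding protein. For Ppargc1b they included D730040F13Rik (0.12) and Klhl24 (0.14), a substrate adaptor of a ubiquitin ligase. For Pprc1, the coactivator with the smallest gap between tissues, they were Nadsyn1 (0.058), the last enzyme of NAD synthesis, Ntan1 (0.077), an amidase, and Ap4e1 (0.081), a subunit of a sorting adaptor. Grb14 had WT means of 106 FPKM in ventricles and 3.80 FPKM in WAT, and Nadsyn1 of 3.30 and 2.34 FPKM. The likeness takes in the gap between tissues as well as the spread between mice.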

How the data were processed

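RNA from heart ventricles and epididymal fat of 3 WT and 3 MED13cTg mice per tissue was sequenced from libraries made with a TruSeq kit, 1 library per mouse. Per the labels, reads were aligned to mm9 with TopHat. The authors estimated expression with Cufflinks (versions are not given in the sources used here) and deposited FPKM values as 1 table per tissue of 23042 rows, of which 31 without a gene symbol stayed out of the tests. A further column of values in WAT (1 column) was not used. The deposited group means and folds of MED13cTg to WT were not used either. FPKM carries no count, so absolute depth is unknown; from values under 0.15 FPKM, fragments relative to WT replicate 1 were 0.922 to 1.02 in ventricles, and in WAT 0.872 and 0.943 for the other WT libraries and 0.672, 0.742 and 0.887 for MED13cTg replicates 1 to 3, so that low values of MED13cTg replicates 1 and 2 are the least precise.

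A symbol was matched within joined entries (341 rows), and the row of highest mean was taken where several carried it. Within a tissue, every gene averaging 1 FPKM or more across its 6 libraries entered a two-sided limma fit (version 3.58.1, R 4.3.3, lmFit, then eBayes with its trend option) on log2(FPKM + 1). P-values were adjusted by Benjamini-Hochberg over all genes tested, with a threshold of 0.05. With 3 against 3 libraries an exact permutation test cannot go below 0.1, so none was used. The labels number the samples without naming the mice; that they are separate mice is from the study's methods. Same-numbered WT and MED13cTg libraries deviated from their group means with correlations of 0.35, 0.31 and 0.15 in WAT, all above 0.1, and of 0.083, -0.19 and 0.14 in ventricles. A pair of unlike number also reached 0.16 in WAT (WT replicate 3 with MED13cTg replicate 2). The main fit was unpaired in both tissues and gave all values not marked otherwise. A fit with the number as a pairing was set beside it in WAT only as the paired fit. Python 3.11.15 with pandas 2.3.3, numpy 2.4.6 and matplotlib 3.10.9 gave the remaining values and the plots.

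The members, lists and markers were chosen with earlier results of these data known. Named beside the members were, per list and tissue, genes called and up to 3 of the largest log2 fold changes without overlap between genotypes, and the 3 genes most like each coactivator. Some genes that this rule names are not reported here. Listed genes outside the rule are marked as named after their values were seen. The 13 mitochondrially encoded mRNAs were listed too, but 0 of them were found by symbol in either tissue, so they could not be analysed. The fit was first tested on simulated data in which 200 genes were changed by 2 on the log2 scale. Of these, 161 were recovered in ventricles (12346 genes) and 163 in WAT (13427 genes). In each tissue 176 genes were called, of which 15 in ventricles and 13 in WAT were unchanged genes. The simulated libraries of both genotypes were drawn with the mean and spread of the WT libraries. The MED13cTg libraries of WAT spread more widely than that, so the number recovered there does not give the recovery in the real WAT data. The largest fitted value of a tested member was 0.61 (Tfb1m in WAT), and recovery of changes smaller than 2 was not tested. In each tissue 16 alternatives were run: quantile normalization, median-of-ratios scaling, a filter at 5 FPKM or none, a pseudocount of 0.1 FPKM, array weights, a fit without the mean-variance trend, the replicate block, summed rows, each library left out in turn, and the library cluster as a covariate (ventricles) or MED13cTg replicates 1 and 2 both left out (WAT).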

Additional observations from a re-analysis of the deposited data

How the results depend on the processing

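Over 16 alternatives per tissue, no member passed the threshold (lowest adjusted p 0.102 in ventricles and 0.374 in WAT). Of 159 values for the 10 members in ventricles, 144 kept their direction and 15 turned. Of 142 values for 9 members in WAT, 126 kept it and 16 turned. The causes were not tested. In ventricles, Ppargc1a, Ppargc1b, Pprc1, Esrra, Tfb1m and Polrmt kept their direction throughout. With the library cluster as a covariate Nrf1 was at 0.057, Gabpa at 0.0075 and Tfam at 0.017, and the median of the regulators at -0.014. Under quantile normalization Tfam was at 0.013 and Tfb2m at 0.012, the targets' median at -0.034 and 0 members lay below WT. Array weights gave Tfam 0.033, Tfb2m 0.036, a regulators' median of -0.14, and 7 genes called higher and 8 lower. Genes called lower were 1 without a filter, with the 5 FPKM filter and with the replicate block, which is no pairing in ventricles. With each library left out in turn, 3 to 6 genes were called higher (6 without WT replicate 3) and 0 to 4 lower (0 without MED13cTg replicate 2). Nrf1 then lay between -0.11 and 0.054, Tfam between -0.072 and 0.065 and Tfb2m between -0.094 and 0.072. The regulators' median lay between -0.16 and -0.031, and that of fusion and fission genes between -0.13 and -0.055. From 1 to 5 members lay below WT (5 without MED13cTg replicate 3). Fewer libraries make such a gap easier to reach, and the share of all genes was not counted with a library left out.

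In WAT, genes called lower were 0 without a filter, with array weights and with the replicate block, the paired fit, which changed no other call. With MED13cTg replicates 1 and 2 both left out, 17 genes were called higher, Ppargc1a was at -0.11, Esrra at -0.14, Nrf1 at -0.034, Tfam at -0.088, Tfb2m at -0.042 and Polrmt at -0.035, the medians at -0.035 (members), 0.033 (regulators) and -0.063 (fusion and fission), and 3 members lay below WT; the lone MED13cTg library is assumed to vary like WT. With those libraries left out, 2 tested members lay above WT. A lone library falls outside the WT values more easily than a full group. The share of all genes was not counted with libraries left out, so these counts describe the members only. Array weights gave Tfb1m -0.020, and quantile normalization gave Tfb2m -0.045, Polrmt -0.036 and 0 members above WT. With each library left out in turn, 0 to 2 genes were called higher and 0 to 4 lower, Esrra lay between -0.22 and 0.38, Nrf1 between -0.0007 and 0.30, Tfam between -0.033 and 0.57, Tfb1m between -0.21 and 1.17, Tfb2m between -0.11 and 0.16, Polrmt between -0.012 and 0.15, the fusion and fission median between -0.050 and 0.14, and 0 to 1 members lay below WT. No scaling moved the median of all genes by over 0.1.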

Other observations

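On the mitochondrial chromosome, which the machinery encoded by Tfam, Tfb2m and Polrmt transcribes, there are 2 entries without a gene symbol. The genes they stand for are not given, so they cannot be read as the output of that machinery as a whole. The first, XLOC_021953, was at 70.6, 59.6 and 56.0 FPKM in WT mice against 63.1, 61.8 and 53.8 FPKM in MED13cTg ventricles, and at 8.83, 7.04 and 6.54 FPKM in WT mice against 4.21, 12.5 and 7.96 FPKM in MED13cTg WAT. The other, XLOC_021954, was at 87.0, 104 and 96.7 FPKM in WT mice against 75.8, 102 and 83.7 FPKM in MED13cTg ventricles, and in WAT a WT library held the highest value, 107 FPKM in replicate 3 against 6.25 to 19.4 FPKM in the other 5 libraries. The genotypes overlapped for both entries in both tissues.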
